A study of Mus musculus with 147 samples.

Results

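Transcripts of the retinoblastoma (Rb) and E2F families were followed through male germ cell development of the mouse, by the UMI counts of 10 named genes among the 31053 genes of the table. These were the pocket protein genes *Rb1*, *Rbl1* and *Rbl2* and the transcription factor genes *E2f1*, *E2f2*, *E2f3*, *E2f4*, *E2f5*, *E2f7* and *E2f8*. All 10 had UMIs in wild-type germ cells and passed the filter on low counts in each of the 7 comparisons made here. The assay was a modified STRT-seq of single germ cells and gonadal somatic cells, in which each captured transcript is read at its 3′ end and carries a barcode for its cell and a molecular identifier (UMI), so that copies made by PCR count once. Levels are given as UMIs per 1000000 UMIs of a pool (CPM), a scale that does not grow with the length of a transcript, and a pool holds the summed germ cells of a time-point, genotype and replicate. Wild-type cells came from crosses of C57BL/6 females with males that carried the *Blimp1*-mVenus and *Stella*-ECFP reporters (BVSC), and the *Helq* null embryos descended from BVSC embryonic stem cells with a small CRISPR/Cas9 deletion in the first exon on both alleles, by way of selfed chimeras, so all groups carried the reporters. HELQ is a DNA helicase of replication fork repair, and the number of targeted stem cell lines behind the null mice is not given in the sources used here. Before birth, germ cells were sorted by the reporters, from E14.5 by *Stella*-ECFP alone, since the *Blimp1* signal fades. After birth, cells with the look of germ cells were picked without a reporter. Wild-type pools drew on more than a single embryo or male gonad before birth and on a single mouse after it. The sources used here give no such counts for the null pools. No sexing is described for embryos of E8.5 and E9.5, and the names of some E10.5 cells give no sex.

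Pocket proteins bind E2F factors and hold their target genes silent until cyclin-dependent kinases phosphorylate them in late G1, and the released E2Fs then switch on genes of DNA replication and S phase. *E2f1*, *E2f2* and *E2f3* encode the factors classed as activators, *E2f4* and *E2f5* those that mostly repress together with the pocket proteins of *Rbl1* and *Rbl2* in resting cells, and *E2f7* and *E2f8* the atypical repressors, which act without a pocket protein and without a dimerisation partner. Male germ cells of the mouse divide in the early gonad, stop in G1 for the rest of fetal life, divide again after birth, and then pass through meiosis into haploid spermatids.

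Promoter sequences are shown for *Rbl1*, *E2f3* and *E2f7*, the members in which a run of letters typical of E2F sites lay before the start site, since E2F factors are known to bind the promoters of their own family. These members fell at arrest and rose at re-entry, as did *E2f1*, *E2f4* and *E2f8*, which had no such run of 8 letters or no promoter in the table. A RefSeq promoter (250 bases before and 50 bases after a start site, GRCm38.p6) was found for 7 of the 10 members, 9 promoters in all. These were searched on both strands for the letters TTTCCCGC, TTTCGCGC, TTTGCCGC and TTTGGCGC. Of the 9 promoters, 4 held such a run of 8 letters, against 744 of 32851 promoters of all genes (2.26%). With the first T left off, 5 of 9 promoters and 9.57% of all promoters held a match. The match is in capitals in the sequences that follow, each written 5′ to 3′ on the strand of the gene, with the 250 bases before the start of *Rbl1* (chr2:157204535-157204784, minus strand), *E2f3* (chr13:29986064-29986313, minus strand) and *E2f7* (chr10:110745189-110745438, plus strand).
Rbl1: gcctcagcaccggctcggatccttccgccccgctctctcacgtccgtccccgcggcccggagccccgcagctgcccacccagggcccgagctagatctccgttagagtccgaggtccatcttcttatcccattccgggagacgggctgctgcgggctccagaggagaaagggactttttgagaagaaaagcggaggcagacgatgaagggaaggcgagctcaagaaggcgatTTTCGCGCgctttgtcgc
E2f3: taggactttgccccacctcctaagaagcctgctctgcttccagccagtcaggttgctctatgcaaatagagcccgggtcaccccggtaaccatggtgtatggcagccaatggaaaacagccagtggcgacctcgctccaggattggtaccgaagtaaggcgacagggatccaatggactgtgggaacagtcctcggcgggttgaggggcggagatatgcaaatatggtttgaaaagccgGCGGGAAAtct
E2f7: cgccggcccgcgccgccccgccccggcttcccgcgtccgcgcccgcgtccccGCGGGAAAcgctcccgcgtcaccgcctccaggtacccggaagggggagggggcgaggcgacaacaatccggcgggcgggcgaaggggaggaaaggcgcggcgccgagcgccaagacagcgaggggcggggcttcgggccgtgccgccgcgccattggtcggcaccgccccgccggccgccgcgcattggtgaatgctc

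In *Rbl1* the match began 18 bases before the start site, on the strand of the gene. In *E2f3* it began 11 bases before the start and in *E2f7* 198 bases before it, in both on the opposite strand, so that the printed capitals are the reverse complement of TTTCCCGC. The fourth match was in a promoter of *E2f2*, 40 bases after a RefSeq start that lies 120 bases from the nearest GENCODE start. *E2f2* fell at arrest but was not called at re-entry. The promoters of *Rbl2* and *E2f1* and the second promoters of *E2f2* and *E2f3* held no match of 8 or 7 letters, and that of *E2f8* held only TTGGCGC. The RefSeq start of *E2f1* is 294 bases from the nearest GENCODE start. Of 17 promoters of the 20 replication genes named further on, 8 held a match of 8 letters. A match is a run of letters and was not tested for binding.

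In mm10 (GENCODE M21) the members are protein-coding genes on 8 chromosomes. *Rb1* lies at chr14:73183673-73325822, *Rbl1* at chr2:157145893-157204534 and *Rbl2* at chr8:91070057-91123844. *E2f1* spans chr2:154559407-154569892, *E2f2* chr4:136172394-136196057 and *E2f3* chr13:29906575-29986063. *E2f4* spans chr8:105297663-105305370, *E2f5* chr3:14578641-14606309, *E2f7* chr10:110745439-110787384 and *E2f8* chr7:48866429-48881596.

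Wild-type germ cells numbered 8392 in 52 pools of 26 time-points, E8.5 to the adult, and *Helq* null germ cells 763 in 9 pools, out of 13032 cells of the series. A germ pool held 25 to 569 cells and 11391996 to 197386013 UMIs (median 31755699), so 1 CPM stood for at least 11 UMIs there. Cells were taken as germ cells where 11 germ cell genes outweighed 27 genes of other cells. Over the fetal pools of E11.5 to E13.5 the germ cell genes summed to 1068 to 2299 CPM, against 4.68 to 19.5 CPM for 5 Sertoli genes and 0.227 to 37.6 CPM for 4 Leydig genes. Some pools carried more RNA of Leydig genes than others of their stage. These were E16.5 replicate 1 (275 CPM), E17.5 replicate 1 (237 CPM), E18.5 replicate 2 (563 CPM) and adult replicate 1 (468 CPM), and the pool of PND2 replicate 1 had only 25 germ cells. In adult replicate 1 only 2 of 326 germ cells scored as spermatids, against 221 of 447 in adult replicate 2. Results are given with and without these pools where they change. In a summed pool, a lower level in every cell and a loss from some of the cells cannot be told apart.

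The members were expressed on different scales and at different times. *E2f3* and *E2f5* had the highest mean levels of the 10 at E11.5 to E13.5 and at PND2 to PND5, and *Rbl2* the lowest at both. The rank order below is of stage means in CPM, and neighbours in it overlapped pool by pool unless it is said that they did not. *Rb1*, the founding pocket protein and tumour suppressor, was highest in quiescent germ cells of E17.5 to PND0 (28.9 ± 11.1 CPM, SD, n = 6) and lowest in spermatid-score cells (8.495 ± 2.06 CPM, n = 5), a range of levels in which every neighbouring stage overlapped. *Rbl1*, which encodes the pocket protein that is itself an E2F target in cycling cells, was highest at PND10 to PND14 (35.6 ± 11.4 CPM, n = 6) and lowest at E17.5 to PND0 (4.20 ± 3.07 CPM, n = 6). *Rbl2*, whose product is the pocket protein of resting cells, was highest in spermatid-score cells. Its level in spermatid-score cells was 112.3 ± 30.6 CPM (n = 5) and did not overlap the next stage, meiotic-score cells at 10.6 ± 3.30 CPM (n = 6), while the lowest stage was E11.5 to E13.5 at 1.20 ± 0.498 CPM (n = 6).

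Among the activators, *E2f1* was highest at E8.5 to E10.5 (62.5 ± 14.3 CPM, n = 6), still had 26.2 ± 7.73 CPM at E17.5 to PND0 (n = 6), and its next level, 2.05 ± 4.27 CPM in meiotic-score cells (n = 6), did not overlap that. *E2f2* stayed low, with its highest stage at E8.5 to E10.5 (16.53 ± 5.45 CPM, n = 6). *E2f3* was the most abundant member of all at E11.5 to E13.5 (92.4 ± 27.3 CPM, n = 6). In its rank order PND1 (48.4 ± 21.7 CPM, n = 2) was followed by E15.5 and E16.5 (15.9 ± 5.34 CPM, n = 4), and these neighbours did not overlap. The stages below and above that gap were not fully apart, since PND0 replicate 1 (34.95 CPM) lay above PND1 replicate 2 (33.1 CPM). Among the repressors, *E2f4* ranged from 46.8 ± 9.95 CPM at E8.5 to E10.5 (n = 6) to 12.2 ± 3.71 CPM at E17.5 to PND0 (n = 6), and *E2f5* from 83.9 ± 10.2 CPM at E11.5 to E13.5 (n = 6) to 11.45 ± 17.2 CPM in meiotic-score cells (n = 6). The atypical *E2f7* was highest at E11.5 to E13.5 (24.5 ± 13.9 CPM, n = 6) and *E2f8* at E8.5 to E10.5 (33.3 ± 6.33 CPM, n = 6). At E15.5 and E16.5 *E2f8* had the lowest mean of the 10, 1.53 ± 1.27 CPM (n = 4).

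**Figure D1:**
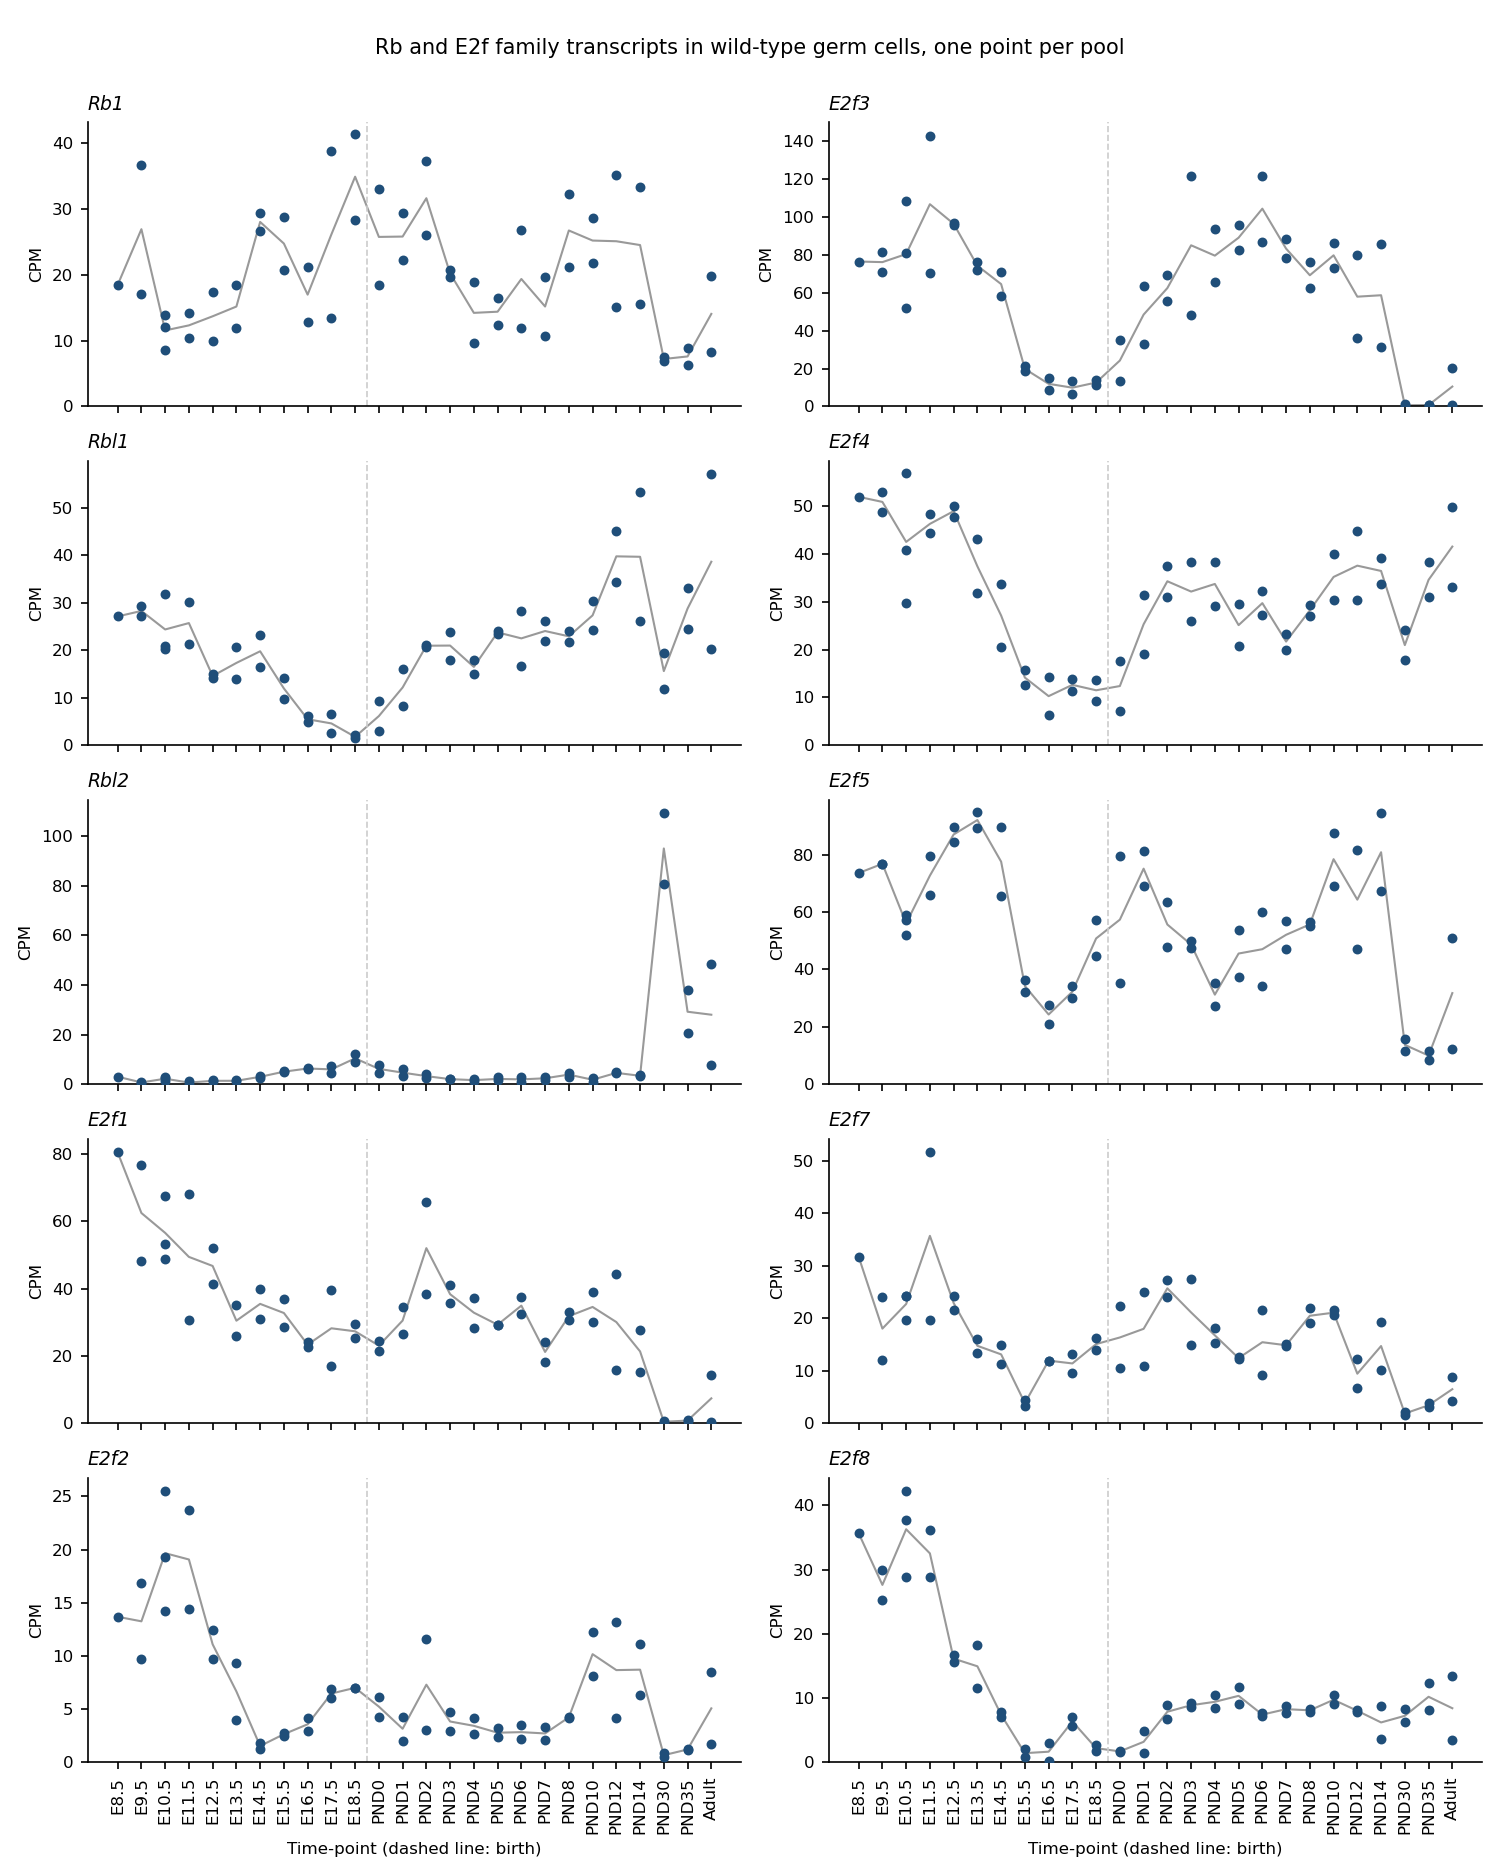
CPM of each of the 10 members (vertical axes, linear, from 0) in every wild-type germ pool from E8.5 to the adult (horizontal axis), 1 point per pool, with a grey line through the means of the time-points and birth as a dashed line. *E2f3* shows 2 humps, with 70.4 to 142.8 CPM at E11.5 to E13.5, 6.39 to 34.95 CPM at E17.5 to PND0 and 48.3 to 121.7 CPM at PND2 to PND5, and the highest points of *Rbl2* lie at the right end.

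The plot of CPM by time-point shows low levels of *Rbl1*, *E2f3* and *E2f4* from E15.5 to PND0, when those of *Rbl2* were above its levels of E11.5 to E13.5. *E2f8* was low there too except at E17.5, where its 7.06 and 5.66 CPM were near the 7.02 and 7.78 CPM of E14.5. As shares of their family, the 7 E2f members together gave 326 ± 27.1 CPM at E8.5 to E10.5 (n = 6), 97.9 ± 13.1 CPM at E15.5 and E16.5 (n = 4) and 56.03 ± 10.2 CPM in spermatid-score cells (n = 5). The activators held 48.2 ± 3.61% of that sum at E8.5 to E10.5 and 47.6 ± 3.68% at E15.5 and E16.5, so the difference in share was within the spread of the pools while that in the sum was not. In meiotic-score cells their share was 6.27 ± 8.07% (n = 6), with 22.5% in adult replicate 1 as the highest pool, and *E2f4* with *E2f5* held 70.1 ± 1.87%. Among the pocket proteins, *Rbl1* held the largest share at E8.5 to E10.5 (58.3 ± 10.47%, n = 6), *Rb1* at E17.5 to PND0 (69.2 ± 7.91%, n = 6) and *Rbl2* in spermatid-score cells (84.3 ± 4.59%, n = 5). These shares are a description without a test.

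**Figure D2:**
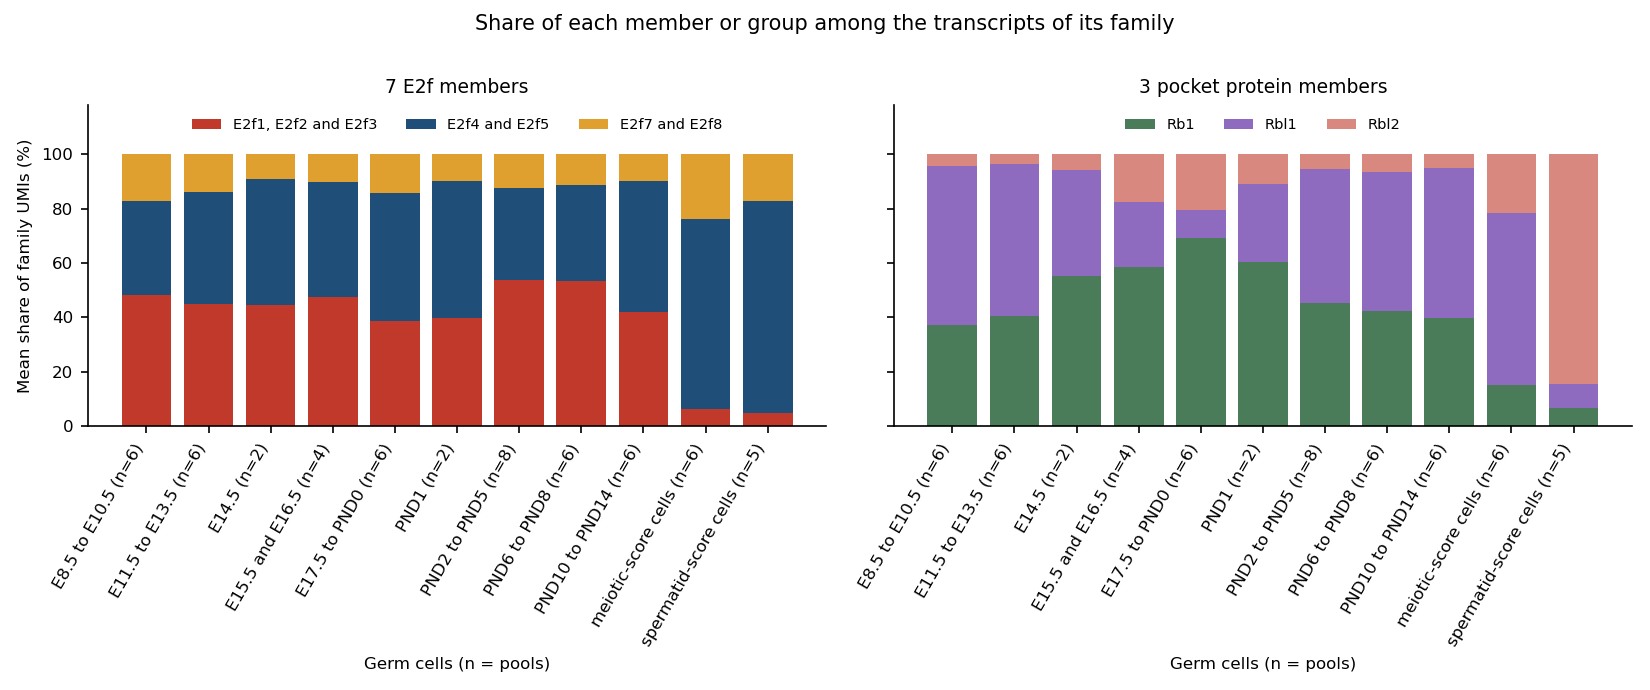
Mean share (vertical axis, percent, from 0) of activators, E2f4 with E2f5 and atypical members among the UMIs of the 7 E2f members (left), and of *Rb1*, *Rbl1* and *Rbl2* among the 3 pocket protein members (right), by stage (horizontal axis, n is the number of pools). The activators hold 6.27% in meiotic-score cells and 5.03% in spermatid-score cells, and *Rbl2* holds 4.51% at E8.5 to E10.5 and 84.3% in spermatid-score cells.

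Arrest was examined by setting the 4 pools of E15.5 and E16.5 against the 6 pools of E11.5 to E13.5, when gonadal germ cells divide. Of the 10 members, 8 fell and *Rbl2* rose, and *Rb1* was not called, in edgeR's quasi-likelihood test at an adjusted p under 0.05, which called 54.3% of the 17401 genes tested (24.2% as lower). The groups did not overlap for 6 members, against 44.2% of all genes. The median change of the members was -1.92 on the log2 scale, against 0.23 for all genes. Of the called genes 55.4% were higher, and 68.7% with library size alone in place of TMM scaling, where the median of all genes was 0.58.

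Of the pocket proteins at arrest, *Rbl1* ranged from 14.1 to 30.1 CPM in dividing cells (median 17.9) and had 9.78, 14.2, 4.85 and 6.17 CPM in the pools of E15.5 replicates 1 and 2 and E16.5 replicates 1 and 2. The E16.5 pools were the lower ones, and only E15.5 replicate 2 reached the dividing range. The log2 fold change was -1.43 ± 0.39 (SE), with an adjusted p of 0.00781. *Rbl2* had 0.283 to 1.65 CPM in dividing cells (median 1.22) and 4.92, 5.29, 6.40 and 6.37 CPM in the arrested pools. Every arrested pool lay above every dividing one, with a log2 fold change of 1.91 ± 0.55 and an adjusted p of 0.0107. *Rb1* had 13.7 ± 3.55 CPM before (n = 6) and 20.8 ± 6.51 CPM after (n = 4), with an adjusted p of 0.434.

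*E2f3* gave 70.4 to 142.8 CPM in dividing cells (median 86.03) and 18.4, 21.1, 8.73 and 15.1 CPM in arrested ones. The groups were far apart, and *E2f3* fell by 2.85 ± 0.30 on the log2 scale (adjusted p 1.52e-05). *E2f1*, whose product can also trigger apoptosis, fell less and with overlap, from 42.2 ± 15.6 CPM (n = 6) to 28.1 ± 6.39 CPM (n = 4), by 0.91 ± 0.28 (adjusted p 0.0139). That call was lost with library size alone (-0.58), without E16.5 replicate 1 (-0.81) and without E16.5 replicate 2 (-0.78). *E2f2* fell by 2.31 ± 0.47 (adjusted p 0.00118). *E2f4* had 31.7 to 49.997 CPM in dividing cells (median 45.97) and 12.6, 15.7, 14.3 and 6.29 CPM in arrested ones, without overlap, and fell by 2.17 ± 0.29 (adjusted p 7.16e-05). *E2f5* likewise did not overlap, from 83.9 ± 10.2 CPM (n = 6) to 29.3 ± 6.51 CPM (n = 4), and fell by 1.85 ± 0.22 (adjusted p 2.96e-05).

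The atypical *E2f8* showed the steepest fall of the 10. It had 11.6 to 36.2 CPM in dividing cells (median 17.507) and 0.799, 2.04, 0.229 and 3.06 CPM in arrested ones. No pools overlapped, and the log2 fold change was -4.10 ± 0.65 (adjusted p 0.000235). *E2f7* fell by 1.99 ± 0.46 (adjusted p 0.00275), also without overlap. It had 13.46 to 51.7 CPM in dividing cells (median 20.7) and 4.51, 3.21, 11.93 and 11.97 CPM in arrested ones. The lowest values of *E2f7* were thus those of E15.5, and the E16.5 pools lay close under the lowest dividing pool. At E17.5 to PND0 *E2f7* had 9.56 to 22.28 CPM, which overlapped the dividing range. The E14.5 pools, left out as the time-point in between, had 58.1 and 70.95 CPM of *E2f3*, 89.6 and 65.5 CPM of *E2f5*, and 7.02 and 7.78 CPM of *E2f8*. With them counted as arrested, *Rbl1* was no longer called (-0.83), while *E2f3* (-1.71), *E2f5* (-1.10), *E2f4* (-1.57) and *E2f8* (-2.79) were still called with smaller changes. *E2f6*, a repressor of the E2F family without a transactivation domain that is not one of the 10, went the other way, from 13.4 ± 4.71 CPM (n = 6) to 46.6 ± 9.59 CPM (n = 4), and rose by 1.46 ± 0.28 (adjusted p 0.000757).

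The 2 fixed lists of the pathway were read from the same fit. Of 20 replication and S-phase genes known as E2F targets, 19 fell and none rose, led by *Rrm2*, the small subunit of ribonucleotide reductase (211.5 ± 73.7 to 11.504 ± 1.62 CPM, log2 fold change -4.52), and *Ccne1*, the cyclin of the G1 to S step (118.6 ± 32.5 to 7.37 ± 3.11 CPM, -4.36). Of 9 partner genes (the dimerisation partners of E2F and the subunits of the DREAM and MuvB complexes), 4 fell and none rose. Among these *Mybl2*, the B-Myb factor of the G2 programme, had -2.72 and *Tfdp1*, the dimerisation partner of E2F, -1.59. Leydig genes summed to 0.227 to 37.6 CPM in the dividing pools and 11.2 to 275 CPM in the arrested ones, and interstitial genes to 1.68 to 27.5 and 16.9 to 138.4 CPM. Without E16.5 replicate 1, which held the most of both, 8 members were called instead of 9.

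**Figure D3:**
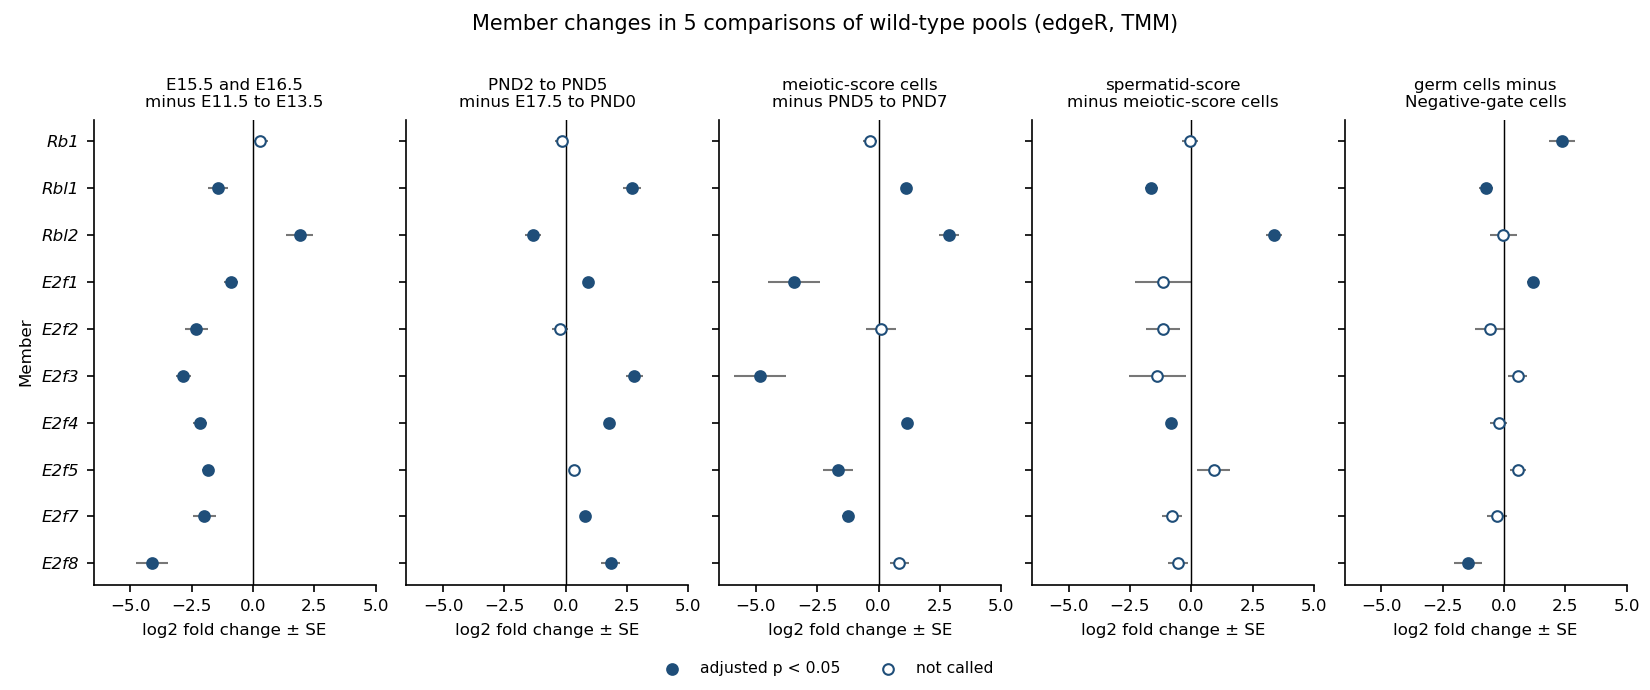
Log2 fold change with its standard error (horizontal axes) of each of the 10 members (vertical axis) in 5 comparisons of wild-type pools, filled where the adjusted p was under 0.05. At arrest *Rbl2* (1.91) lies right of 0 and 8 members lie left, at re-entry *Rbl2* (-1.33) lies left and 6 called members lie right, and the remaining comparisons show no such common side.

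Re-entry into the cell cycle was examined with 8 pools of PND2 to PND5 against 6 pools of E17.5, E18.5 and PND0, when prospermatogonia are quiescent. Here 6 members rose, *Rbl2* fell and 3 were not called, where 62.4% of 20955 genes were called (29.3% as higher). For 4 members the groups did not overlap, against 32.5% of all genes. The members' median was 0.84 on the log2 scale and that of all genes -0.14. With library size alone the median of all genes was -0.52, and 30.8% of the called genes were higher in place of 47%. No pool was shared with the comparison at arrest.

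*Rbl1* had 1.49 to 9.31 CPM in quiescent cells (median 2.86) and 15.1 to 24.04 CPM after re-entry (median 20.98). No pools overlapped, and it rose by 2.697 ± 0.37 (adjusted p 7.81e-06). *Rbl2* had 4.47 to 12.04 CPM (median 7.75) before and 1.36 to 4.13 CPM (median 2.14) after, again without overlap, and fell by 1.33 ± 0.33 (adjusted p 0.00193). *Rb1* gave 28.9 ± 11.1 (n = 6) and 20.1 ± 8.57 CPM (n = 8) and was not called (adjusted p 0.582).

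*E2f3* had 6.39 to 34.95 CPM in quiescent cells (median 13.4) and 48.3 to 121.7 CPM afterwards (median 75.8). The highest quiescent pool, PND0 replicate 1, still lay below the lowest of PND2 to PND5, and *E2f3* rose by 2.80 ± 0.34 (adjusted p 2.65e-06). *E2f1* rose by 0.90 ± 0.19 (adjusted p 0.00044) with overlap, and *E2f2* had 6.23 ± 1.04 (n = 6) and 4.33 ± 3.03 CPM (n = 8) with no call (adjusted p 0.561). *E2f4* had 7.15 to 17.6 CPM in quiescent pools (median 12.6) and 20.7 to 38.3 CPM later (median 30.2). It rose by 1.77 ± 0.21 (adjusted p 1.96e-06), without overlap. *E2f5* did not follow. Its pools had 46.8 ± 18.7 (n = 6) and 45.3 ± 11.48 CPM (n = 8), with an adjusted p of 0.141, and it was called with PND1 added (0.51) or without PND0 replicate 1 (0.55), whose 79.6 CPM was the highest quiescent value. Of the atypical members, *E2f8* rose by 1.83 ± 0.39 (adjusted p 0.000559) and *E2f7* by 0.79 ± 0.22 (adjusted p 0.00537), the latter lost with library size alone (0.41).

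PND1, left out as the step in between, had 63.7 and 33.1 CPM of *E2f3*, 16.1 and 8.25 CPM of *Rbl1* and 3.41 and 6.03 CPM of *Rbl2* in replicates 1 and 2. Of the 20 E2F target genes 19 rose and none fell, with *Rrm2* at 4.01 and *Tk1*, thymidine kinase, at 3.29. Of the 9 partners 6 rose, *Tfdp1* by 1.34 and *Mybl2* by 1.33, and *Mybl1*, the A-Myb factor of meiosis, fell by 2.14. Leydig genes summed to 11.4 to 563 CPM in the quiescent pools and 0.709 to 97.6 CPM afterwards. Without E17.5 replicate 1, E18.5 replicate 2 and PND2 replicate 1, 7 members were again called.

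Meiosis was examined with cells of PND30, PND35 and the adult whose meiotic genes (such as *Sycp1* and *Sycp3*) scored highest, in 6 pools, against the germ cells of PND5 to PND7 in 6 pools, in which 6 spermatogonial class genes summed to 1409 to 1851 CPM. The 6 meiotic class genes summed to 1061 to 1167 CPM in the PND5 to PND7 pools, just under the 1181 to 1467 CPM of 5 meiotic-score pools and below the 2752 CPM of adult replicate 1. The score was a cut through a range. Of 1401 meiotic-score cells, 478 led the next class by less than 1 on the mean log2(CPM + 1) scale, and the 6 class genes of spermatids summed to 187 to 818 CPM in the meiotic pools. In these cells *Rbl1*, *Rbl2* and *E2f4* rose and *E2f1*, *E2f3*, *E2f5* and *E2f7* fell, 7 of 10 where 77.2% of 19294 genes were called (43.7% as higher, 33.4% as lower). The groups did not overlap for 4 members, against 57.5% of all genes, so both shares were below those of all genes. The pools of PND5 also served in the comparison at re-entry. The median of all genes was 0.24 with TMM and -0.36 with library size alone, and 56.7% and 45.1% of the called genes were higher. Members whose call depends on the scaling are named.

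*E2f3* had 78.1 to 121.6 CPM at PND5 to PND7 (median 87.7) and 0.0572 to 13.03 CPM in meiotic-score cells (median 0.496), the lowest of these being 3 UMIs in PND30 replicate 1. All meiotic pools but adult replicate 1 lay under 1 CPM. *E2f3* fell by 4.84 ± 1.05 (adjusted p 0.00109), with -7.16 without adult replicate 1. *E2f1* had 18.3 to 37.5 CPM (median 29.3) and 0.0489 to 10.8 CPM (median 0.319). Its groups did not overlap either, and it fell by 3.43 ± 1.07 (adjusted p 0.0104), with -5.81 without adult replicate 1. DESeq2 gave no adjusted p for *E2f1* and *E2f3*. *E2f2* had 2.77 ± 0.638 (n = 6) and 2.16 ± 2.79 CPM (n = 6) and was not called (0.10 ± 0.59, adjusted p 0.883). It was called as lower, however, when PND30 cells sorted as 4N stood for meiosis (-2.64) or when only libraries of the name series s0505 were used (-2.04).

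*Rbl2* had 0.910 to 3.09 CPM at PND5 to PND7 (median 2.36) and 5.65 to 14.4 CPM in meiotic-score cells (median 11.6). Every meiotic pool was above every pool of PND5 to PND7, and it rose by 2.88 ± 0.41 (adjusted p 3.74e-05). *Rbl1* had 23.5 ± 3.97 (n = 6) and 34.5 ± 14.1 CPM (n = 6) and rose by 1.13 ± 0.20 (adjusted p 0.000254) with overlap. The call of *Rbl1* was lost with library size alone (0.56) and with 4N-sorted cells (0.28). *Rb1* had 16.3 ± 6.11 (n = 6) and 8.67 ± 4.99 CPM (n = 6) and was not called (adjusted p 0.304), but was called as lower with library size alone (-0.91) or without adult replicate 1 (-0.68).

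*E2f4* rose by 1.15 ± 0.17 (adjusted p 6.01e-05), from 25.5 ± 4.93 (n = 6) to 37.3 ± 9.76 CPM (n = 6). With 4N-sorted cells it was not called (0.52). *E2f5* fell by 1.65 ± 0.61 (adjusted p 0.0263), from 34.2 to 59.9 CPM (median 50.5) to 2.14 to 46.3 CPM (median 5.63), where the 46.3 CPM of adult replicate 1 was the only overlapping value and the change was -2.82 without that pool. *E2f7* fell by 1.25 ± 0.26 (adjusted p 0.000772) without overlap. *E2f8*, which had 8.68 ± 1.63 (n = 6) and 9.99 ± 4.45 CPM (n = 6), was not called (adjusted p 0.0612), and was called as higher without adult replicate 1 (1.00). That pool also held 466 CPM of spermatogonial marker genes in its meiotic-score cells, against 16.6 to 54.6 CPM in the other 5, and 472 CPM of Leydig genes. Their part in its member levels was not tested.

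*E2f6* fell by 2.78 ± 0.45 (adjusted p 0.000114), from 50.3 ± 8.38 (n = 6) to 4.996 ± 3.15 CPM (n = 6). Of the 20 E2F targets 16 fell and 2 rose. The steepest falls were those of *Cdt1*, the licensing factor (146.8 ± 7.60 to 5.61 ± 10.6 CPM, -4.33), and *Pola1*, the catalytic subunit of DNA polymerase alpha (39.3 ± 11.2 to 1.62 ± 2.86 CPM, -4.20). The 2 that rose were *Ccne2*, the second cyclin E (1.11), and *Pcna*, the sliding clamp, whose change turned from 0.44 with TMM to -0.17 with library size alone. Of the 9 partners 4 rose and 4 fell. *Mybl1* rose by 4.90 and *Lin52*, a MuvB subunit, by 3.01, while *Tfdp2*, the second dimerisation partner, fell by 2.32 and *Mybl2* by 2.30.

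**Figure D4:**
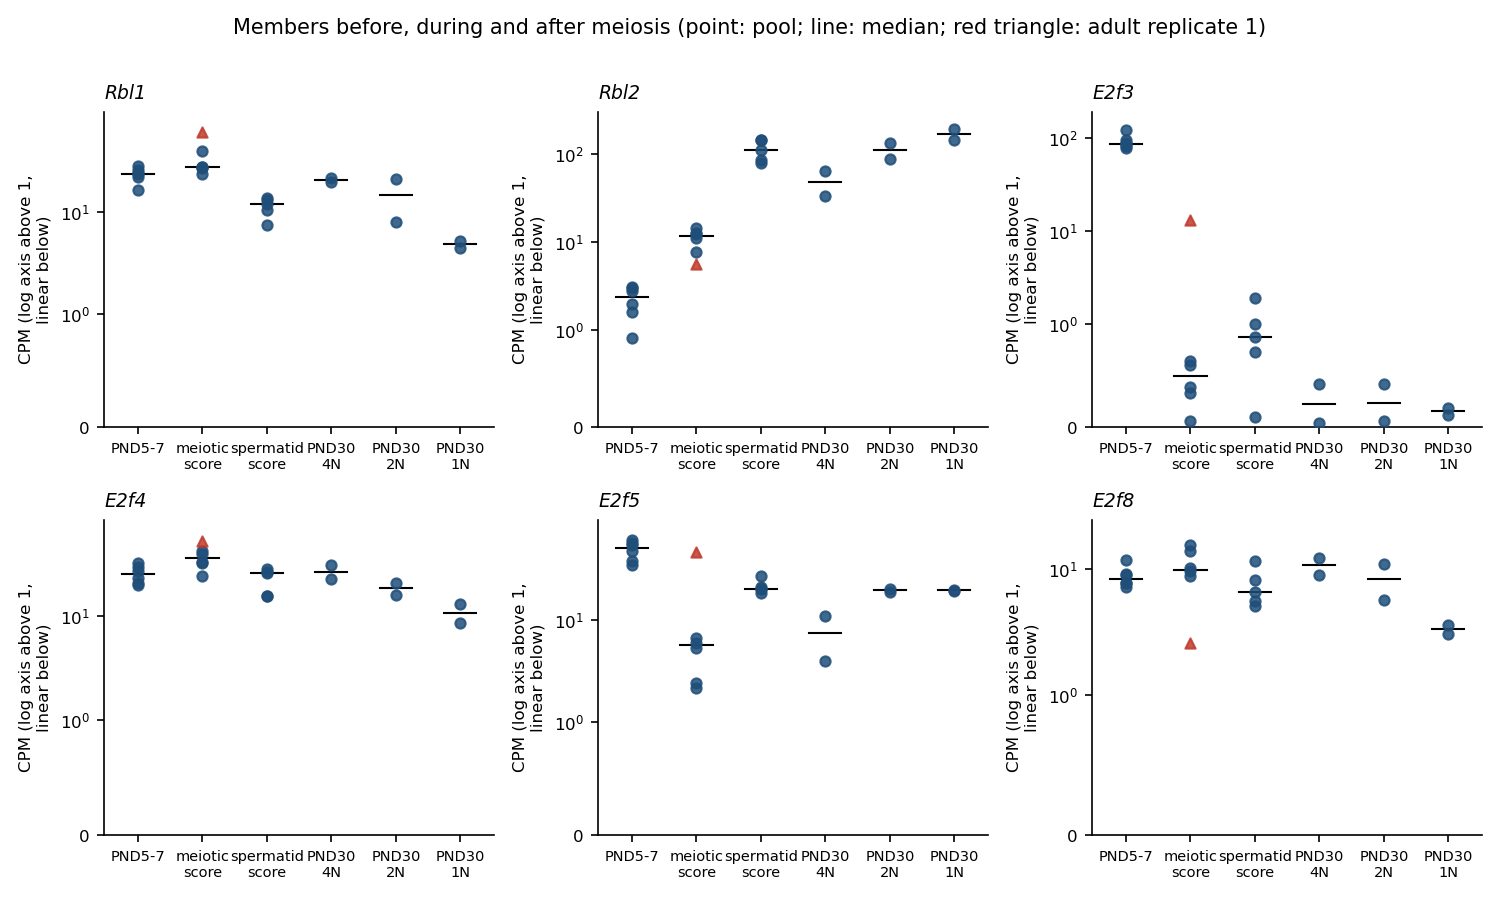
CPM of *Rbl1*, *Rbl2*, *E2f3*, *E2f4*, *E2f5* and *E2f8* (vertical axes, logarithmic above 1 CPM and linear below) in germ pools of PND5 to PND7, in meiotic-score and spermatid-score pools, and in PND30 cells sorted by DNA content (horizontal axis), with points for pools, lines for medians and red triangles for adult replicate 1. In meiotic-score cells the triangle stands above the other 5 pools for *E2f3* (13.03 CPM) and *E2f5* (46.3 CPM) and below them for *Rbl2* (5.65 CPM) and *E2f8* (2.57 CPM), and *Rbl2* is highest in spermatid-score cells and 1N cells.

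Spermatid-score cells, those whose 6 spermatid class genes scored highest, were compared with meiotic-score cells of the same mice, 5 pools against 6, since adult replicate 1 had too few spermatid-score cells. The class was not made of haploid cells alone by the DNA gates. At PND30, 238 of 430 spermatid-score cells in replicate 1 and 73 of 254 in replicate 2 had been sorted as 2N or 4N. Of the 254 cells in replicate 2, 88 had no DNA gate and 93 had been sorted as 1N. *Rbl2* rose, and *Rbl1* and *E2f4* fell. *Rbl2* had 14.4, 10.98, 12.3, 7.71, 5.65 and 12.6 CPM in meiotic-score cells of PND30, PND35 and adult replicates 1 and 2, in that order. In spermatid-score cells it had 143.3 and 142.99 CPM at PND30, 111.01 and 78.3 CPM at PND35, and 85.97 CPM in adult replicate 2. The lowest spermatid-score pool was far above the highest meiotic pool, and *Rbl2* rose by 3.36 ± 0.32 (adjusted p 4.48e-06). *Rbl1* fell by 1.64 ± 0.26 (adjusted p 0.000187), from 23.6 to 61.1 CPM (median 27.9) to 7.5 to 13.9 CPM (median 11.9), without overlap. *E2f4* fell by 0.81 ± 0.21 (adjusted p 0.00509) with overlap, from 37.3 ± 9.76 (n = 6) to 22.3 ± 6.26 CPM (n = 5), and was not called in 1N against 4N cells (-1.16). These were the 3 members called, where 53.7% of 21197 genes were called (28% as higher, 25.7% as lower). For 2 of the 10 the groups did not overlap, against 42% of all genes.

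Since both classes come from the same mice, the fit was repeated with the pool as a block, in which adult replicate 1 without its spermatid pool carries no weight, and 7 members were then called. *Rbl2* rose by 3.15 (adjusted p 4.75e-09) and *E2f5* by 2.25 (adjusted p 1.25e-05), while *Rbl1* fell by 1.48, *E2f4* by 0.75, *E2f8* by 0.79 and *E2f7* by 0.76. *E2f1* turned from -1.14, not called, to 1.59 (adjusted p 0.0133), at levels of 0.0489 to 0.794 CPM in meiotic-score cells outside adult replicate 1 and 0.290 to 1.59 CPM in spermatid-score cells. *E2f5* had 2.14, 2.39, 5.96, 5.30 and 6.61 CPM in those meiotic-score pools and 20.8, 19.9, 26.7, 19.9 and 18.46 CPM in the spermatid-score pools. Each spermatid-score pool was above the meiotic pool of its own mouse. *E2f3* turned from -1.38 to 0.97 and was called in neither fit. *E2f3* (0.097 to 1.88 CPM) and *E2f2* (0.586 to 1.36 CPM) were low in spermatid-score cells, and *Rb1* had 8.67 ± 4.99 (n = 6) and 8.495 ± 2.06 CPM (n = 5) with no call in either fit.

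Sorting by DNA content at PND30 gave a view that did not use the scores. *Rbl2* had 143.97 and 191.2 CPM in 1N cells, 133.7 and 87.6 CPM in 2N cells and 64.3 and 33.04 CPM in 4N cells of replicates 1 and 2. The order was 1N, 2N and 4N in each replicate. The log2 fold change of 1N against 4N was 1.97, smaller than between the scored classes. Of the 4N cells 68.1% and 84.2% had a meiotic score, and of the 1N cells 100% and 98.9% a spermatid score, as had 95.2% and 68.2% of the 2N cells and 31.9% and 15.8% of the 4N cells. With only the cells whose class led clearly, *Rbl2* rose by 4.24. The lists were read from the fit of the scored classes without the block, in which adult replicate 1 counts. Of the 20 targets 9 fell and none rose, with *Mcm3* of the replicative helicase at -2.96 and *Ccne2* at -2.56. *Mcm3* had 26.9 ± 40.7 CPM in meiotic-score cells, an SD above its mean, and 3.40 ± 1.94 CPM in spermatid-score cells. Of the 9 partners 6 fell, among them *Tfdp1* (-2.06) and *Rbbp4* (-1.71), and *Mybl2* rose (1.17).

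Germ cells of E12.5 to E16.5 were set against cells of the Negative gate of the same gonads, 10 pools against 10. *Rb1* and *E2f1* were higher and *Rbl1* and *E2f8* lower in germ cells, 4 of 10 members where 58.4% of 14535 genes were called (33.6% as higher, 24.8% as lower). None of the 10 had groups without overlap, against 19.8% of all genes. *Rb1* had 0.374 to 12.1 CPM in somatic cells (median 2.75) and 10.0 to 29.4 CPM in germ cells (median 19.5). Among these pools only somatic E14.5 replicate 2 reached the germ cell range, and the log2 difference was 2.36 ± 0.53 (adjusted p 0.000547). With E11.5, E17.5 and E18.5 added, the difference was smaller (1.66) and still called. At E17.5 somatic replicates 1 and 2 had 33.48 and 15.2 CPM of *Rb1*, against 13.46 and 38.7 CPM in germ cells. The somatic pools were the lower ones at E11.5 (5.11 and 0.504 against 14.1 and 10.46 CPM) and E18.5 (1.365 and 4.48 against 28.3 and 41.4 CPM). *E2f1* had 6.02 to 27.2 CPM (median 14.51) against 22.7 to 52.03 CPM (median 32.97), a difference of 1.18 ± 0.25 (adjusted p 0.000361).

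*E2f8* had 12.97 to 50.95 CPM in somatic cells (median 24.8) and 0.229 to 18.3 CPM in germ cells (median 7.40). Its difference was -1.47 ± 0.56 (adjusted p 0.0289). *Rbl1* had 25.2 ± 6.58 against 13.9 ± 5.76 CPM (n = 10 each), a difference of -0.72 ± 0.28 (adjusted p 0.0305). Arrested germ pools count among these, whose *E2f8* was at 0.229 to 3.06 CPM. Of the 20 targets 8 were higher in germ cells, among them *Orc1* (1.72) and *Cdt1* (1.09), and *Tk1* was lower (-1.48), and of the partners 3 were higher, with *Mybl2* at 3.02 and *Tfdp2* at 0.89. The somatic pools held 354 to 1376 CPM of Sertoli genes and 1376 to 3971 CPM of interstitial genes, so they mix cell types.

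*Helq* null germ cells were compared with wild-type ones on each day from E11.5 to E15.5 and at E18.5, 9 pools against 12, with the time-point as covariate. The tags are read at the 3′ end and the deletion is in the first exon, so the 22.9 ± 3.71 CPM of *Helq* in wild-type (n = 12) and 23.7 ± 7.39 CPM in null pools (n = 9) check nothing about the knockout. Of the 10 members *Rb1* alone was called, where 0.756% of 21562 genes were called (0.288% as higher). *Rb1* had 10.0 to 41.4 CPM in wild-type pools (median 19.5) and 15.8 to 87.6 CPM in null pools (median 39.3). At E14.5 the null replicates 1 and 2 had 87.6 and 61.99 CPM against 26.6 and 29.4 CPM in wild type, and at E15.5 they had 63.1 and 39.3 against 20.6 and 28.8 CPM. The null pool was above both wild-type pools of its time-point in 8 of 9 cases, and at E12.5 it lay between them. The difference was 0.86 ± 0.18 on the log2 scale (adjusted p 0.0186). It was no longer called without wild-type E14.5 replicate 1 (0.81), nor with only libraries of the name series s0505 (0.98, 4 null pools).

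In cells of the Negative gate *Rb1* was likewise above both wild-type pools in 8 of 9 null pools, with a difference of 1.74 ± 0.63 that was not called (adjusted p 0.59). Leydig genes summed to 0.227 to 563 CPM in wild-type and 0.846 to 91.04 CPM in null germ pools, and Sertoli genes to 4.68 to 57.02 and 6.68 to 86.96 CPM. The null allele and the descent of the null mice from targeted stem cells cannot be told apart here. The name series of the libraries was not balanced between the genotypes either. Null E14.5 replicate 1 was of series s0307, and both wild-type pools of E14.5 were of s0505. Null E13.5 replicate 2, E15.5 replicate 2 and E18.5 replicate 1 were of s0828, a series without a wild-type pool of these time-points. The other 9 members had differences from -0.39 (*E2f5*) to 0.44 (*Rbl1*) with adjusted p of 0.376 to 0.937. *E2f5* was below both wild-type pools in 7 of 9 null pools, without a call (adjusted p 0.376). The 2 others were those of E15.5, which lay above both wild-type pools (45.9 and 46.5 against 32.3 and 36.2 CPM). No target gene was called, and of the partners *Rbbp4*, a histone chaperone of the MuvB core, was higher by 1.05.

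**Figure D5:**
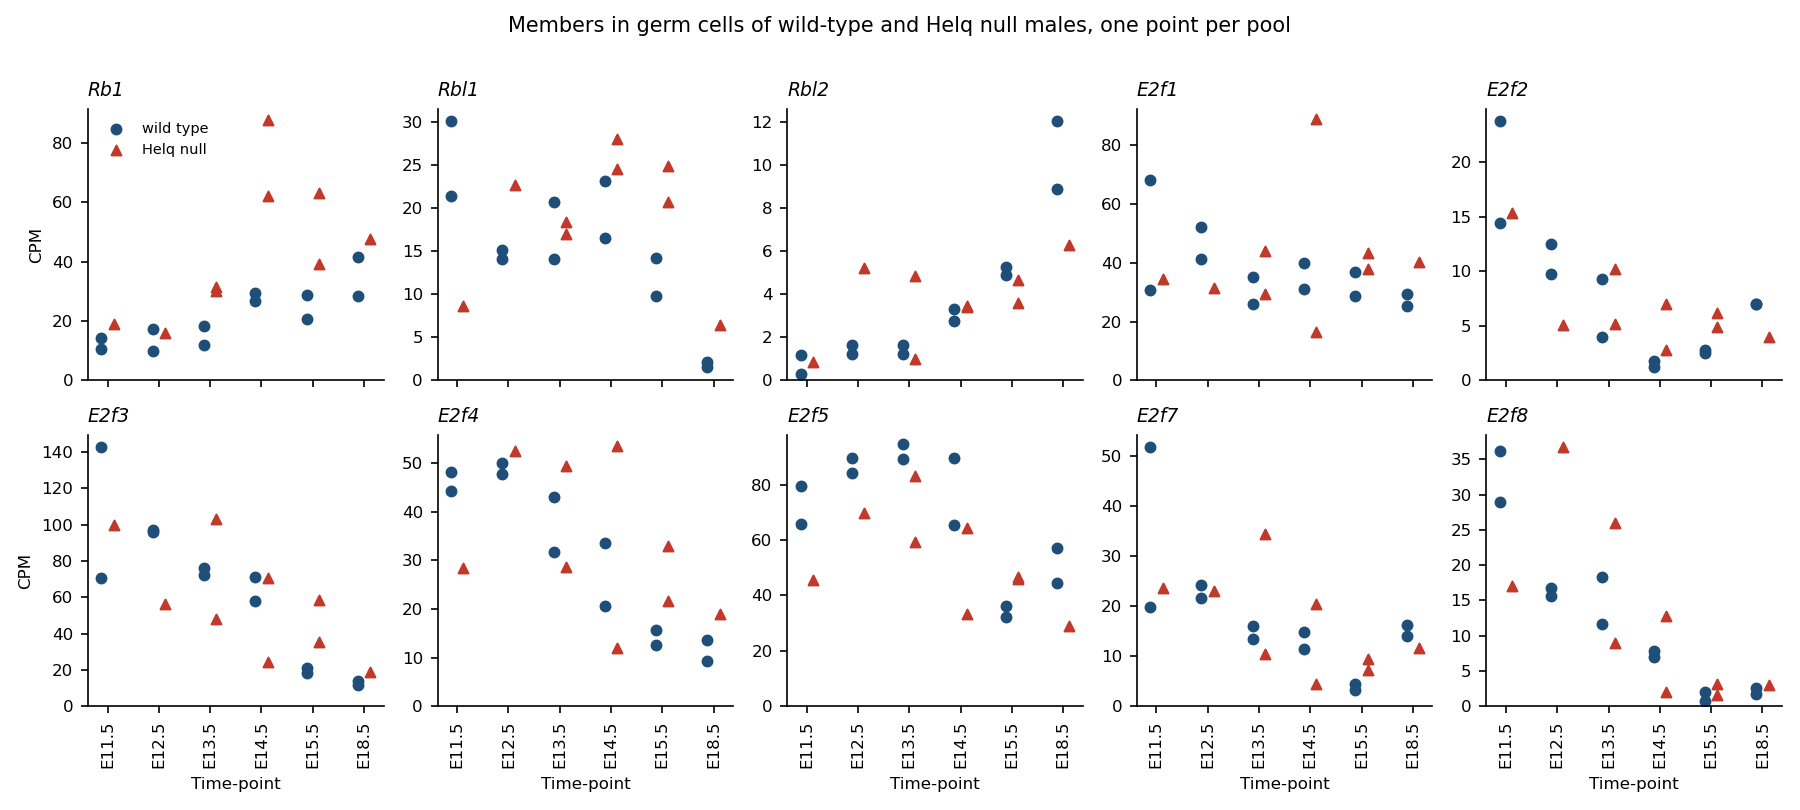
CPM of each member (vertical axes, from 0) in germ pools of wild-type and *Helq* null males at 6 time-points (horizontal axis), 1 point per pool. For *Rb1* the null points stand above the wild-type points at every time-point but E12.5, at 87.6 and 61.99 CPM at E14.5, and for *E2f3* they stand on both sides of the wild-type points (58.2 and 35.4 CPM against 18.4 and 21.1 CPM at E15.5, and 56.4 CPM against 95.8 and 96.8 CPM at E12.5).

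Whether the change at arrest differs between the genotypes was asked with an interaction term of genotype and stage, with E11.5 to E13.5 against E15.5. No member was called, and none of 19326 genes was (0%), in edgeR, where 2228 had an unadjusted p under 0.05. DESeq2 called 324 genes and none of the 10. At E15.5 the null pools of *E2f3* had 58.2 and 35.4 CPM and the wild-type pools 18.4 and 21.1 CPM, and those of *E2f4* had 33.02 and 21.6 against 12.6 and 15.7 CPM. The null pools were the higher ones in both genes. At E15.5 they also lay above both wild-type pools for *Rb1*, *Rbl1*, *E2f1*, *E2f2*, *E2f5* and *E2f7*. For *Rbl2* they lay below both, and for *E2f8* only replicate 1 lay above. The interaction was 1.59 ± 0.49 for *E2f3* (adjusted p 0.244) and 1.19 ± 0.45 for *E2f4* (adjusted p 0.338), and the median over the 10 members was 1.06 against -0.08 for all genes. These wild-type pools also served in the comparison at arrest.

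The members' patterns over the 52 wild-type pools were described by Pearson's r of log2(CPM + 1), among 11062 genes with a mean of at least 10 CPM, with time-points and depth shared by all genes. Among the members the closest pair was *E2f1* and *E2f3* (r = 0.86) and the most opposed pair *Rbl2* and *E2f3* (r = -0.92). *E2f3* was most like *Ptma* (0.98), *Psmc6* (0.97) and *Naa50* (0.97), and *E2f1* most like *Sall4* (0.97), *Grb2* (0.97) and *Chek2* (0.96). *Rbl2* was most like *Fam71d* (0.94), *Akap3* (0.94) and *Spatc1l* (0.93). *Rb1* had no close match, with *Prtg* at 0.78 as its highest. The highest values of the other 6 members lay between 0.84 for *E2f2* with *Crip1* and 0.91 for *E2f5* with *Cpne3*.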

How the data were processed

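Per the authors' methods, reads were demultiplexed with CASAVA 1.8, barcodes and UMIs were extracted with UMI-tools, reads were aligned to mm10 with STAR and assigned with featureCounts of Subread. The deposited values are raw UMI counts per gene and cell, 31053 genes by 13032 cells from 147 libraries. The labels of the libraries name no condition, so genotype, time-point, gate and replicate of each cell were read from the names in the authors' table of cells. Cells with more than 2000 genes and 10000 to 1000000 UMIs were kept (12692, of which 11598 wild-type and 1094 null). The 96 barcodes recur in 130 to 142 libraries each and none repeats within a library. Cells were picked singly and no doublet caller was run.

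A germ cell had at least 50 CPM of 11 germ cell genes, more of these than of 27 genes of other cells, at most 100000 CPM of globins and, before birth, the reporter gate. Of the germ cells, 172 lay within 1 log2 unit of equal sums (with 10 CPM added to both). The lists of yolk sac and mesoderm were applied at E8.5 to E10.5 only, which was decided after seeing the data. At E8.5, replicates 1 and 3, with 48 reporter-sorted cells each, had 0 germ cells by this rule. Only replicate 2, with 86 germ cells, gave a pool of E8.5. Counts were summed over cells to pools of at least 10 cells, so cells are not replicates. Each comparison was fitted over all genes with edgeR 4.0.16 (TMM, filterByExpr, quasi-likelihood test, Benjamini-Hochberg adjustment, threshold 0.05) under R 4.3.3. Errors are SD for CPM and SE for log2 fold changes. Alternatives were RLE factors, no filter, DESeq2 1.42.0, the gate alone, at least 20 cells, other time-points or classes, each pool left out and a replicate block, and those with library size alone, by library name, without doubted pools, with clear classes or with Negative-gate cells were added after seeing the data. The script was tested on simulated data. Nothing in the labels says that pools before birth came from separate litters, and p-values then measure the spread between these pools. In the main fits other than that of the *Helq* null, the groups joined several time-points without a term for the day. Their SD, SE and p-values thus mix change between days with the spread between replicates.

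Meiotic-score and spermatid-score pools of the same number are cells of the same mouse, and their deviations from the group means correlated with r of 0.14 to 0.445 over 5 pairs. The members and lists were chosen with earlier results of these data known. Named were the 10 members, *E2f6*, of the lists of 9 partners and 20 targets the 2 called genes with the largest rise and fall, and the 3 genes most alike in pattern. Germ pools have at least 11391996 UMIs and some Negative-gate pools have fewer, and amplification and capture add error that UMI counts do not show.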

Additional observations from a re-analysis of the deposited data

Results flagged for a closer look

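In 15 of 90 groups of 4 to 10 pools, a single pool stood apart from the rest of its group by more than Dixon's 95% critical value, where chance alone flags about 1 in 20 groups. The groups share pools and are not independent.

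Adult replicate 1 gave 5 of these among the 6 meiotic-score pools. It had 18.7 CPM of *Rb1*, where the next highest pool had 8.01 CPM. Its *E2f1* was 10.8 CPM (next 0.794), its *E2f2* 7.71 CPM (next 1.99), its *E2f3* 13.03 CPM (next 0.638) and its *E2f5* 46.3 CPM (next 6.61).

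Among pools of E11.5 to E13.5, E11.5 replicate 1 was lowest in *Rbl2* (0.283 CPM) and highest in *E2f3* (142.8 CPM) and *E2f7* (51.7 CPM). PND0 replicate 1 was lowest of E17.5 to PND0 in *E2f2* (4.29 CPM) and highest in *E2f3* (34.95 CPM, next 13.7). PND2 replicate 1, the pool with 25 cells, was highest of PND2 to PND5 in *E2f1* (65.7 CPM) and *E2f2* (11.6 CPM). Single pools stood apart in *E2f5* of spermatid-score cells (PND35 replicate 1, 26.7 CPM), in *E2f2* of Negative-gate cells (E16.5 replicate 2, 30.7 CPM) and in *E2f1* of *Helq* null germ cells (E14.5 replicate 1, 88.8 CPM, next 44.1).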

How the results depend on the processing

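The number of members called, leaving out each pool in turn, was 8 to 9 at arrest (reported 9), 7 to 8 at re-entry (7), 7 to 9 in meiosis (7), 3 to 5 in spermatid-score cells (3, with 5 without meiotic adult replicate 1), 4 in each case for germ cells against soma (4), 0 to 1 in the *Helq* null (1, with 0 without wild-type E14.5 replicate 1) and 0 for the interaction. Under the other settings the counts were 8 to 9, 6 to 8, 5 to 9, 2 to 7, 4, 0 to 1 and 0. In the *Helq* null, 0 members were called with library names starting with s0505 and with Negative-gate cells. The sign of a member's change turned in 43 cases of member and setting, 40 of them called in neither fit. The 3 with a call were *E2f2* in meiosis, at -2.64 with 4N-sorted cells and -2.04 with library names starting with s0505, and *E2f1* in spermatids, at 1.59 with the replicate block. The causes were not tested.

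With the replicate block, 7 members were called in spermatids. The block kept 4 calls in germ cells against soma, where *E2f8* moved from -1.47 to -2.20 and pairs correlated with r of 0.031 to 0.241. In the *Helq* null the numbers are shared in name only (r -0.39 to -0.277, 0 of 6 best with their own number), and with the block *Rb1* was again the 1 member called (0.96, adjusted p 0.0233). The arrest, re-entry and meiosis comparisons set different mice side by side, so no block was fitted there. Counts over all genes in the *Helq* null were 359 with no filter, 578 with DESeq2, 59 with names starting with s0505, 72 with E13.5 to E15.5 only and 13 with Negative-gate cells, against 163. The interaction had 87 with no filter, 324 with DESeq2, 35 with library size alone and 4 with the gate alone, against 0. Spermatids had 5074 in 1N against 4N cells, against 11378. Of the members' CPM per time-point, 59 values moved by more than the SD with the gate alone or the mean over cells and 441 did not. At E8.5, which has 1 pool and no SD, 15 of 20 lay outside the exact 95% binomial interval. Levels under 1 CPM in meiotic-score cells rest on as few as 3 UMIs.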
